A study of Danio rerio with 6 samples.

Results

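The adult zebrafish telencephalon, the front part of the forebrain, held reads from 2 annotated miR-222 loci, MIR222 (ENSDARG00000090347) and mir222b (ENSDARG00000099922). They were taken by identifier out of 434 annotated miRNA loci, of which 222 were detected in at least 1 library and 188 entered the test. Both miR-222 loci passed the filter on low values. The pair was selected on its measured values in these libraries, namely the dominance of MIR222, the larger response of mir222b to injury and the ratio between them. Those values are therefore given as a description and carry no test.

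Libraries of small RNAs were made from 3 injured and 3 control telencephalic hemispheres. In the injured group a syringe needle was inserted into 1 hemisphere of an adult fish, and RNA was taken 5 days after the lesion, a time stated for the matching mRNA libraries whose RNA preparation was called identical. The control hemispheres are labelled healthy with no treatment. For the mRNA libraries the study took them from the unlesioned side of the injured fish, so the controls may come from fish with a lesion on the other side. The sources used here give neither strain, sex nor age beyond adult. Hemispheres were numbered and, for the mRNA libraries, processed separately, but which injured and control hemispheres came from 1 fish is not stated. The p-values weigh each difference only against the spread between these libraries, estimated in part from all tested loci.

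MicroRNAs are short RNAs that guide silencing proteins to mRNAs through a seed near their 5′ end. In mammals miR-222 is made together with miR-221 from a single gene cluster, the pair shares its seed, and both repress the cell cycle inhibitor CDKN1B (p27) and the receptor KIT in human cells. They are known from human endothelium and vascular smooth muscle, and in the rat miR-222 rises in sensory ganglia after a nerve lesion. The counts were made on GRCz11. In the RefSeq annotation of a different zebrafish assembly, GRCz12tu, dre-mir-221 and dre-mir-222 (synonym mir-222a) are direct neighbours. The gene mir222b lies on another sequence of that assembly, with fundc2 next to it, while the related gene fundc1 is the third gene from the miR-221 side of the cluster. The miR-221 locus of the count tables is MIR221 (ENSDARG00000091272). It had no part in the choice of the pair and was used as a comparison. As the direct neighbour of MIR222 it may not be independent of that locus.

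The injured libraries held between 11473850 and 14545864 reads at miRNA loci, and the control libraries between 2475462 and 4008607. Depth thus parted the libraries as the groups did, and the 2 cannot be told apart. Levels are given as reads per 1000000 reads at miRNA loci (RPM). CPM stands for the same after the libraries were scaled to each other with TMM factors, which discount loci of extreme level or change. Inserts of 21 to 23 nucleotides were kept for every miRNA, and levels of different loci were compared without a length correction. The share of each miRNA that fell outside this window was not measured. Nor was it measured how well the library chemistry captures each sequence. Both limit comparisons of level between loci. The neuron list (miR-9, miR-124, miR-132 and others) held 27 loci, which summed to 224355 to 248963 RPM in injured and 236670 to 245539 RPM in control libraries. Most of that sum came from dre-mir-132-2 (mean of 124039 RPM in injured and 133847 RPM in control libraries) and mir9-4 (82402 RPM in injured and 80475 RPM in control libraries), and miR-9 is also made in neural progenitors. The loci of miR-124, a defining miRNA of neurons, averaged at most 19.4 RPM each in injured and at most 18.5 RPM each in control libraries. Several loci carry this number, and the mapping quality limit of 30 removes reads that fit several loci equally well. These values can therefore be too low and were not read as a low level of miR-124. In these bulk samples a change in the number of cells and a change in RNA per cell cannot be told apart.

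MIR222 was the most abundant locus in each of the 6 libraries. It took 2402381, 1854066 and 1751737 reads in injured libraries 1, 2 and 3, against 456586, 658808 and 414845 reads in control libraries 1, 2 and 3. As a share of all reads at miRNA loci this was 16.5%, 16.1% and 15.3% in the injured libraries, against 17.4%, 16.4% and 16.8% in the control libraries. About 1 in 6 reads counted at miRNA loci therefore came from this locus. The order is one of single loci as counted. Reads that fit several loci equally well were removed, so a miRNA with near-identical copies can be counted too low. Whether miR-222 is also the most abundant mature miRNA was not tested. The widest exact 95% binomial interval of these shares, in control 3, ran from 16.7118% to 16.8049%, which covers counting error only. The means were 16.0% ± 0.634 in injured and 16.9% ± 0.482 in control libraries (SD, n = 3 each), and the ranges of the groups overlapped, since injured 1 lay above control 2.

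The second locus in every library was dre-mir-132-2, of the neuronal miR-132 family. MIR222 had 1.36, 1.23 and 1.28 times its reads in the injured libraries, against 1.26, 1.31 and 1.21 times in the control libraries. The CPM of the 2 loci did not overlap within either group. In order of mean CPM there followed mir92b, of the miR-92 family, mir9-4, of the miR-9 family of neural progenitors, MIR101-1, mir458, mir153c, mir30d, MIR92A1 (ENSDARG00000104805) and MIRLET7I. Among these, mir92b and mir9-4 overlapped in the injured libraries, as did mir458 and mir153c, and MIR101-1 and mir458 overlapped in both groups. The reads of MIR222 exceeded those of the 193 to 195 least abundant detected loci together in the injured libraries, and of the 184 to 191 least abundant together in the control libraries. That was 90.6% to 91.1% of the loci with a read in injured and 91.3% to 92.3% in control libraries.

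**Figure D1:**
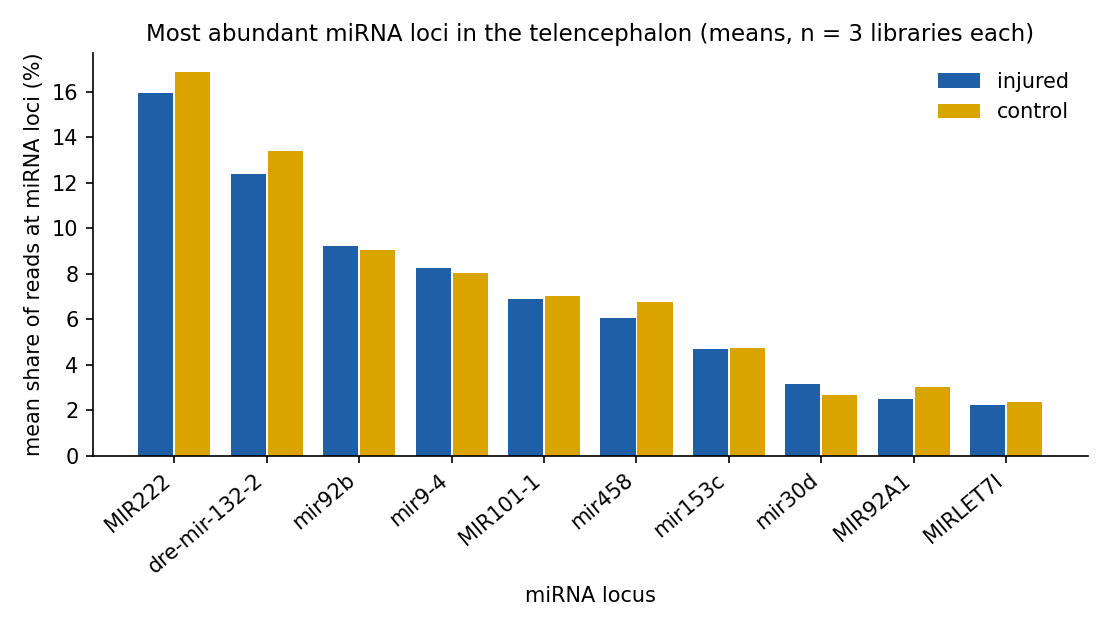
Mean share of reads at miRNA loci, in percent, of the 10 most abundant loci in order of mean CPM, with blue bars for the 3 injured and yellow bars for the 3 control libraries. MIR222 stands first in both groups, at 16.0% in injured and 16.9% in control libraries, ahead of dre-mir-132-2 at 12.4% in injured and 13.4% in control libraries.

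The second miR-222 locus was of middling abundance. It took 6484, 4882 and 4947 reads in injured libraries 1, 2 and 3, against 496, 1082 and 547 reads in control libraries 1, 2 and 3. Scaled to depth these counts were 446 RPM (95% exact Poisson interval 435 to 457), 423 RPM (412 to 435) and 431 RPM (419 to 443) in injured libraries. In control libraries they were 189 RPM (173 to 206), 270 RPM (254 to 286) and 221 RPM (203 to 240). The lowest injured library lay above the highest control library, and their counting intervals did not meet. These intervals cover counting error only, and those of control 1 and control 2 did not meet either. The means were 433 ± 11.3 RPM in injured and 227 ± 40.8 RPM in control libraries (SD, n = 3 each).

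Among all 434 loci mir222b ranked 75th, 81st and 78th in the injured libraries, against 94th, 87th and 90th in the control libraries. By mean CPM it stood at place 83 of 188. Its neighbours above were mirlet7a-3, mir125b-3 and MIR144, the last a miRNA of red blood cells, and those below were dre-mir-27e, MIR18A and mir22a-2. With 428 CPM in injured and 229 CPM in control libraries, it moved across this order. In injured libraries it overlapped MIR144 and stood clear of dre-mir-27e, while in control libraries it overlapped dre-mir-27e and stood clear of MIR144.

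The fitted log2 fold change of mir222b was 0.90 (SE 0.13), a 1.87-fold higher level in injured hemispheres. That of MIR222 was −0.12 (SE 0.045), or 0.921-fold. The median log2 fold change over all 188 tested loci was 0.028, and the median of its absolute value was 0.15. Ordered from the largest increase, mir222b held place 12 of 188, and MIR222 held place 145. In RPM, mir222b was higher by 207 and MIR222 fell by 9042. The sum of both loci was 159980 ± 6344 RPM in injured and 168815 ± 4783 RPM in control libraries (SD, n = 3 each). The summed level of both loci was thus set by MIR222.

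Of the 2 loci 1, mir222b, was called changed by edgeR at an adjusted p below 0.05, where 12.8% of the tested loci were called in either direction and 10.6% as higher. Since the choice of the pair used this contrast, nothing is read from that count. In CPM the groups did not overlap for either miR-222 locus, nor did they for 26.1% of the tested loci. For MIR222 this rested on the scaling between libraries, since its RPM values did overlap. Without control 2, the fold change of MIR222 was −0.18 on the log2 scale, over 1.5 times its value with all libraries, and with upper-quartile scaling it was −0.23. The value of mir222b lay between 0.79 without control 1 and 1.00 without control 2, the control libraries with the lowest and the highest level of this locus.

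**Figure D2:**
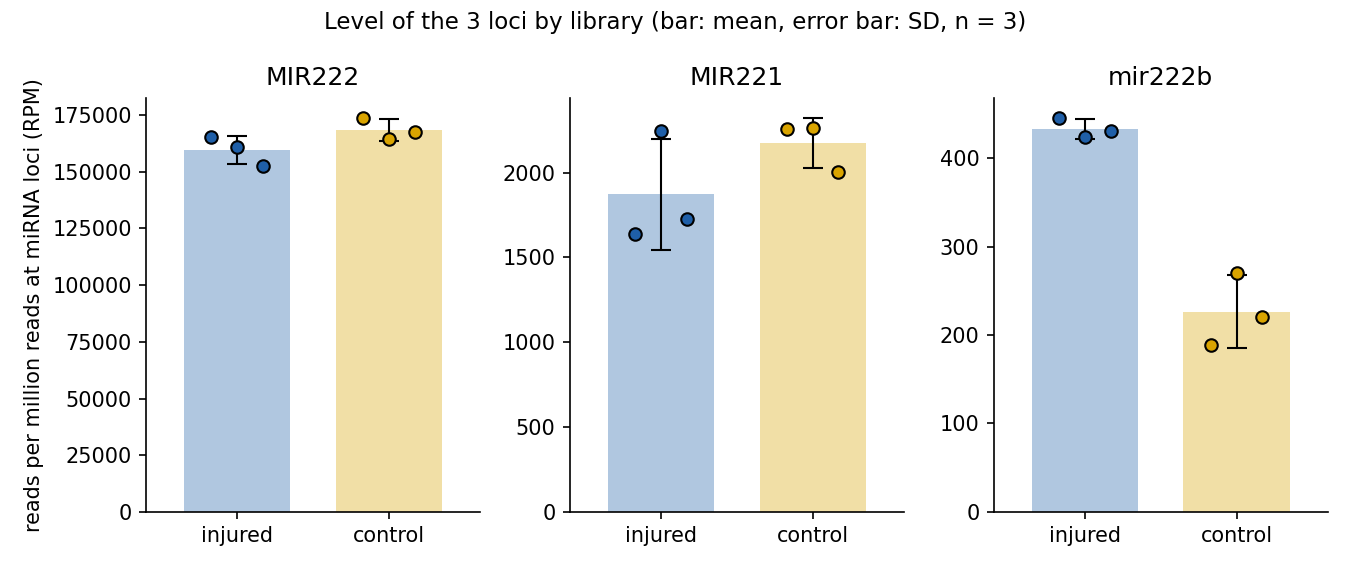
Level in reads per 1000000 reads at miRNA loci (RPM) of MIR222, MIR221 and mir222b, each with its own axis from 0. Points are libraries, bars are means and error bars are SD (n = 3 each), with injured libraries in blue and control libraries in yellow. For mir222b the injured libraries lie between 423 and 446 RPM and the control libraries between 189 and 270 RPM, while the groups overlap for MIR222 and MIR221.

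The ratio of the 2 loci within a library does not depend on the scaling between libraries. It does depend on reads being assigned to the right locus. Reads were aligned with at most 1 mismatch, and the mature sequences of the 2 loci were not compared here. Whether some reads of MIR222 were counted at mir222b was therefore not tested, which bears on the level of mir222b as well. For each 1000 reads of MIR222 there were 2.70, 2.63 and 2.82 reads of mir222b in injured libraries 1, 2 and 3, against 1.09, 1.64 and 1.32 in control libraries 1, 2 and 3. Counting error put the injured ratios between 2.56 and 2.90 and the control ratios between 0.993 and 1.74 (95% exact intervals). These intervals leave out the spread between libraries. Within the control group, those of control 1 (0.993 to 1.19) and control 2 (1.55 to 1.74) did not meet. Each injured ratio as counted lay above each control ratio. Seen the other way, 1 read of mir222b stood against 371, 380 and 354 reads of MIR222 in the injured libraries, and against 921, 609 and 758 in the control libraries.

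The mean log2 ratio of mir222b to MIR222 was −8.52 ± 0.051 in injured and −9.55 ± 0.30 in control libraries (SD, n = 3 each), a difference of 1.03. Of this difference, 0.95 came from the higher RPM of mir222b and 0.080 from the lower RPM of MIR222. Leaving out 1 library moved it between 0.88 and 1.18. The injured libraries varied less than the control libraries in this ratio, with a coefficient of variation of 3.57% in injured and 20.7% in control libraries. For mir222b counting alone gives a relative error of 1.24% to 1.43% in the injured and 3.04% to 4.49% in the control libraries, and the observed coefficient of variation of its RPM was 2.62% in the injured and 18.0% in the control libraries.

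**Figure D3:**
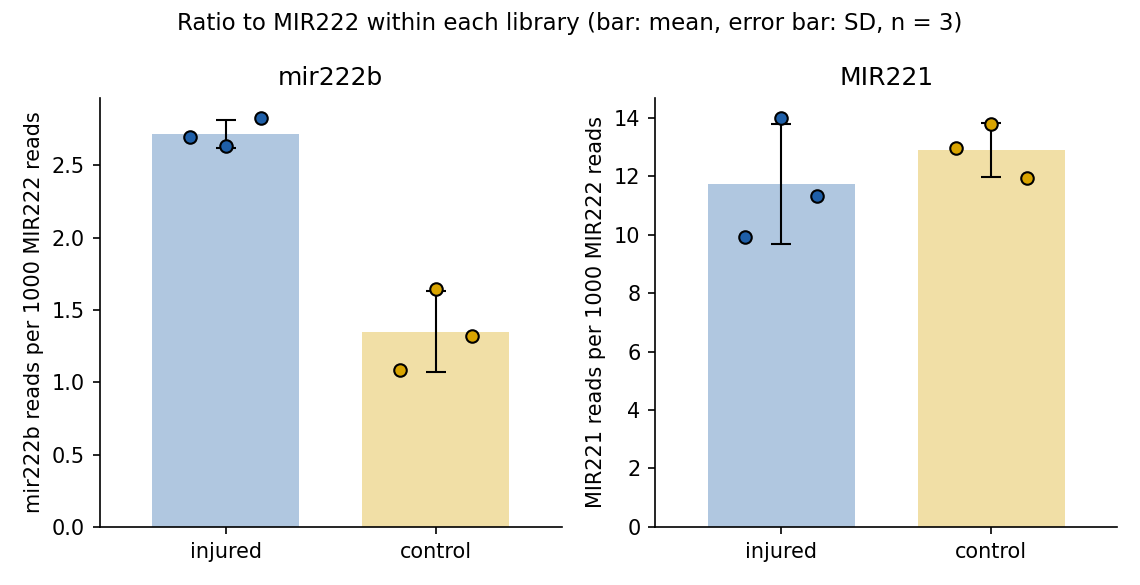
Reads of mir222b (left) and of MIR221 (right) for each 1000 reads of MIR222 in the same library. Points are libraries, bars are means and error bars are SD (n = 3 each). The mir222b ratio is 2.63 to 2.82 in injured and 1.09 to 1.64 in control libraries, whereas the MIR221 ratio spans 9.93 to 14.0 in injured and 11.9 to 13.8 in control libraries.

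To set this difference in context, all pairs of named loci with the same miRNA number were taken, with a mean of at least 100 reads and a read in each library. This gave 176 pairs from 34 miRNA numbers, which are not independent, since a locus can stand in several pairs. The let-7 loci supplied more of these pairs than any other miRNA, so the medians lean on that family. The median absolute change of the log2 ratio was 0.15, and the miR-222 pair held place 5. Since the pair was selected on its ratio, this place is a description only. Of the 4 pairs with a larger change, 3 contain the locus ENSDARG00000080579 (named MIR26A2) and the other is mir146a with dre-mir-146b-1. Ratios did not overlap between the groups in 24.4% of the pairs. MIR222 exceeded mir222b 500-fold in mean CPM, against a median of 8.65-fold, and 14 pairs were more unequal.

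**Figure D4:**
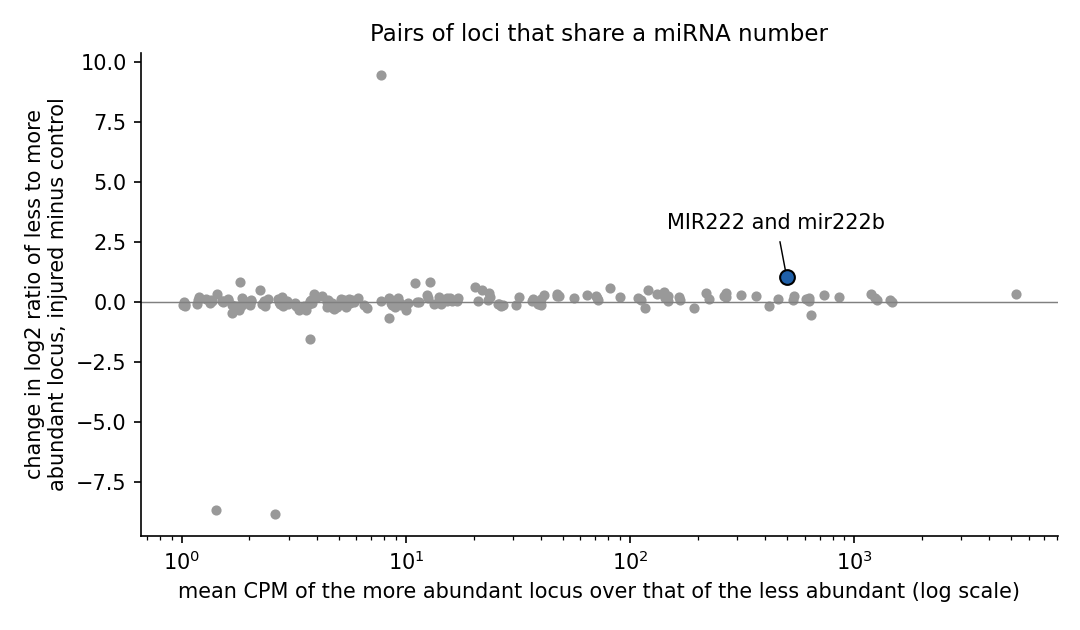
Each point is a pair of loci that share a miRNA number. The horizontal axis is the mean CPM of the more abundant locus divided by that of the less abundant (log scale), and the vertical axis is the change of their log2 ratio, injured minus control. The pair of MIR222 and mir222b, in blue, lies at 500-fold and a change of 1.03, and the points beyond 5 in either direction all contain the locus ENSDARG00000080579.

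MIR221, the neighbour of MIR222, was tested in the fit over all loci. It had 23861, 25923 and 19843 reads in the injured libraries, against 5927, 9079 and 4956 reads in the control libraries. This gave 1640, 2248 and 1729 RPM in the injured libraries, against 2257, 2265 and 2002 RPM in the control libraries. Injured 2 lay among the controls, and the groups overlapped. The log2 fold change was −0.25 (SE 0.13, 95% interval −0.56 to 0.057), and edgeR did not call it (adjusted p = 0.346). Without injured 2 the log2 fold change was −0.40 and the locus was called lower (edgeR adjusted p = 0.0382), so this library decided the call.

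The proportion of MIR221 to its neighbour varied between libraries. For each 1000 reads of MIR222 it had 9.93, 14.0 and 11.3 reads in the injured libraries, against 13.0, 13.8 and 11.9 in the control libraries, and the groups overlapped. Reads of mir222b for each 1000 reads of MIR221 were 272, 188 and 249 in the injured libraries, against 83.7, 119 and 110 in the control libraries, with no overlap. Since mir222b was selected on its response, this lack of overlap is a description only. Among the pairs of loci with the same miRNA number, 24.4% showed no overlap. MIR222 made up 98.6% ± 0.195 of the reads of the 3 loci in injured and 98.6% ± 0.106 in control libraries (SD, n = 3 each).

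**Figure D5:**
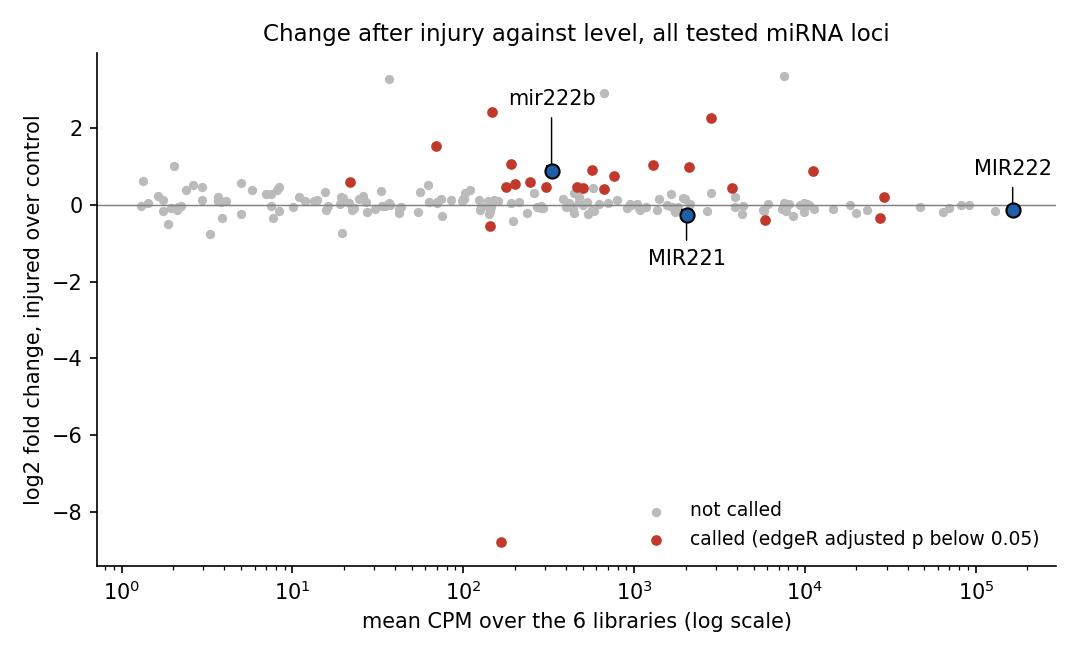
Log2 fold change, injured over control, against mean CPM (log scale) for the 188 tested loci, with loci called by edgeR in red. The blue points, whose SE bars lie within the markers or just reach past them, are MIR222 at −0.12, MIR221 at −0.25 and mir222b at 0.90. Of these, mir222b is among the called loci, but it was selected on this contrast, so nothing is read from its call.

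Loci with a similar course over the 6 libraries were found by the Euclidean distance between log2 CPM profiles, each centred on its own mean. For mir222b the nearest of the 187 other loci were dre-mir-146b-1 (0.30), of the miR-146 family that restrains inflammatory signalling in mammals, dre-mir-462 (0.45), dre-mir-731 (0.46), MIR15B (ENSDARG00000081366; 0.48) and MIR16-2 (0.53). The median distance was 1.21. In fish miR-462 and miR-731 form a cluster that responds to interferon, and the miR-15/16 family represses cell cycle genes in mammals. The log2 fold changes of these neighbours were 0.75 (SE 0.080) for dre-mir-146b-1, 0.88 (SE 0.20) for dre-mir-462, 1.04 (SE 0.19) for dre-mir-731, 0.61 (SE 0.11) for MIR15B and 0.53 (SE 0.18) for MIR16-2, all of the sign that likeness to mir222b selects. The nearest, dre-mir-146b-1, had 955 ± 10.8 CPM in injured and 566 ± 34.2 CPM in control libraries (SD, n = 3 each). For MIR222 the nearest were MIRLET7I (0.072), ENSDARG00000082908 (0.077), dre-mir-138 (0.088), mir130a-2 (0.11) and mir126a (0.12), against a median of 0.47. MIR221 came at place 87 from MIR222, and mir222b at place 170.

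With profiles centred within each group, which removes the difference between injured and control, MIRLET7I, ENSDARG00000082908 and dre-mir-138 again led for MIR222, followed by MIR181B1 (0.092) and mir130a-2. For mir222b the nearest were then MIRLET7F2 (ENSDARG00000083280; 0.16), dre-mir-124-4 (0.18), MIR9-1 (0.19), mir193b (0.21) and mir146a (0.22). None of its 5 nearest loci over all libraries was among these, and MIR9-1 averaged only 2.12 CPM. MIR221 stood at place 118 from MIR222 and at place 129 from mir222b.

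Lists of miRNAs of other cell types were set beside the increase of mir222b. Over all 188 tested loci edgeR called 12.8% in either direction and 10.6% as higher, which is the share to hold against the counts below. Both tested leucocyte loci, named MIR142, were called higher, with log2 fold changes of 0.99 (SE 0.24; edgeR adjusted p = 0.0382) and 0.91 (SE 0.21; edgeR adjusted p = 0.0328). Both calls were lost with Bonferroni adjustment (edgeR adjusted p = 0.841 and 0.599), with limma-voom (adjusted p = 0.0569 and 0.0504) and without any 1 library other than injured 1, where the edgeR adjusted p lay between 0.0545 and 0.126, while the log2 fold changes stayed between 0.76 and 1.12. Their list summed to 2606 to 4222 RPM in injured and 1306 to 2156 RPM in control libraries, while the defining loci MIR223 and mir150 of that list were at 0 in all 6 libraries. Of the 434 annotated loci only 222 had a read in some library, so these 0 values were not read as absence of the cells. The 2 endothelial loci, mir126a and MIR126, summed to 7736 to 7819 RPM in injured and 7791 to 8098 RPM in control libraries. Most of that sum came from mir126a. Their log2 fold changes were −0.11 (SE 0.065) for mir126a and 0.45 (SE 0.46) for MIR126, and edgeR gave them adjusted p of 0.403 and 0.701. MIR126 had 157 CPM in control 1, against 630 and 660 CPM in control 2 and control 3 and 694, 610 and 674 CPM in injured 1, 2 and 3. The 2 erythrocyte loci summed to 2326 to 2754 RPM in injured and 2006 to 2506 RPM in control libraries, and the 8 muscle loci to 4.12 to 6.19 RPM in injured and 3.05 to 5.25 RPM in control libraries. Of the muscle loci 1, mir133b, had enough reads to be tested. Among it and the endothelial and erythrocyte loci 0 were called by edgeR, DESeq2 or limma-voom, and 0 had an unadjusted edgeR p below 0.05. Of the 25 tested neuron loci, each of these tools called 1 lower and 0 higher, and 2 had an unadjusted edgeR p below 0.05. With the filter at a mean normalised count of 100, 12 neuron loci remained, so the others had few reads to show a change. The locus that edgeR called was mir128-1, of the neuronal miR-128 family, and this call was lost with Bonferroni adjustment and without control 1, control 2, control 3 or injured 3. The part of these cell types in the level of mir222b was not tested.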

How the data were processed

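The authors deposited raw counts of reads per miRNA locus, with 1 table per library and no normalisation. Per the study's methods, adaptors were trimmed with Cutadapt, inserts of 21, 22 or 23 nucleotides were kept, and reads were aligned to GRCz11 with STAR (the submitters' processing notes name BWA), with at most 1 mismatch and a mapping quality limit of 30, and counted with HTSeq. Tool versions were not given in the sources used here. The quality limit removes reads that fit several loci equally well, so loci with near-identical copies can be counted too low. The 5 summary lines of each table were left out of library sizes, and reads outside any miRNA locus made up 11.4% to 12.3% of each table.

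Counts were fitted with edgeR 4.0.16 in R 4.3.3 (quasi-likelihood test, two-sided, TMM factors over all loci, the group as the only term, Benjamini-Hochberg adjustment over the loci with a mean normalised count above 10). Each standard error is the log2 fold change divided by the root of its F statistic. Log2 CPM used a prior count of 2. Alternatives were limma-voom (limma 3.58.1), DESeq2 1.42.0, Bonferroni adjustment, other scalings and filters, a block on the replicate number, and leaving out each library. The code was tested on simulated counts. Libraries of the same group differed by a chi-square per degree of freedom of 42.8 to 1982. No 2 libraries of 1 group were therefore the same library deposited again, which does not bear on repeat libraries from 1 RNA sample. Injured and control libraries were not compared in this way. Symbols named 331 of the 434 loci.

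The 2 loci, the lists and the rules were chosen with earlier results of these data known. The rule for named loci took the 2 loci, MIR221, the 10 most abundant loci, the 3 loci above and below mir222b in level, the 5 loci nearest to each member by either centring, and the cell type lists. The comparison of loci with the same number was chosen after the values were seen. The part of the rule on shared seeds was not applied, since mature sequences were not used here.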

Additional observations from a re-analysis of the deposited data

How the results depend on the processing

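The log2 fold change of mir222b ran from 0.79 to 1.00 over 15 alternatives, all on the libraries that served its selection. Bonferroni adjustment, which leaves fold changes as they are, was not counted among them. The log2 fold change of MIR222 stayed negative, from −0.23 to −0.080 over 14 alternatives. Upper-quartile scaling gave the −0.23, and under it the median over all tested loci shifted by −0.11 as well. Leaving out 1 library gave −0.18 to −0.091 for MIR222, 0.79 to 1.00 for mir222b and −0.40 to −0.15 for MIR221, which was called only without injured 2. Over its 16 alternatives the adjusted p of MIR221 ran from 0.0382 to 1. The difference in the share of MIR222, −0.90 percentage points, lay between −1.18 and −0.45, and the difference in log2 ratio of 1.03 between 0.88 and 1.18. Bonferroni adjustment left 6 of the 24 calls over all loci, by its stricter limit. Leaving out 1 library gave 10 to 24 calls, with 10 without control 1, control 3 or injured 3 and 14 without control 2. There were 20 calls without injured 2 and 24 without injured 1, so the count depended on which library was left out. Upper-quartile scaling gave 11 loci higher and 5 lower, DESeq2 22 and 9, against 20 and 4 with TMM, and the cause was not tested. The mean count after DESeq2 size factors as the filter, with TMM over the tested loci, was added after the data were seen and gave 26 calls.

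Same-numbered libraries deviated together only in part (correlations across loci of 0.32, 0.12 and 0.082, against −0.20 to 0.064 for libraries with different numbers). Each of the same-number values was above each of the others, but 1 lay under 0.1. The deviations were taken from group means of 3 libraries, so a higher same-number value lowers the others. The different-number values are therefore not an independent baseline. The controls may come from the other side of the injured fish, but no source used here says that a number marks a fish, so the numbers were not taken as pairs. With a replicate block the log2 fold change was −0.12 for MIR222, 0.91 for mir222b and −0.26 for MIR221, the difference in log2 ratio stayed at 1.03, and edgeR called 22 loci. For mir222b counting error is below the spread between libraries in both groups (1.24% to 1.43% against 2.62% in injured and 3.04% to 4.49% against 18.0% in control libraries).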

Other observations

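The spread of mir222b was compared with that of loci of like level. Of the 34 other tested loci within 2-fold of its mean CPM, 1 had a smaller coefficient of variation over the injured libraries, where mir222b had 2.42% and the median was 9.28%. Over the control libraries 9 of the 34 had a larger one than the 16.3% of mir222b. Each of these values rests on 3 libraries. The locus most like mir222b over all libraries, dre-mir-146b-1, lay outside this window with a mean of 761 CPM. Its coefficient of variation was 1.13% in injured and 6.03% in control libraries, so a small injured spread was not particular to mir222b. MIR222 had the smallest standard error of the log2 fold change of all 188 tested loci.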
